A study of Homo sapiens with 6 samples.

Results

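The genes described here carry iron into hepatocyte-derived cells, store it, export it and sense it. They are TF, TFRC, TFR2, FTH1, FTL, SLC40A1, SLC11A2, ACO1, IREB2 and CP. The genes were chosen by name as core genes of iron handling, with earlier results of these data known. They were looked up in the count table through their Ensembl gene identifiers. All 10 were found among its 20422 rows, and all 10 passed the filter on low counts that left 12386 genes for testing.

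RNA-Seq was performed on HepG2 cells, an established human hepatocellular carcinoma line, with 3 libraries of negative control cells (NC) and 3 of cells overexpressing a Flag-tagged open reading frame (ORF-Flag), the microprotein APPLE encoded by ASH1L-AS1. The labels describe plasmid transfection, with the empty vector in NC, whereas the study's methods describe lentiviral vectors and stable lines selected with puromycin. The level of the overexpressed RNA was not analysed here. Total counts were 20081203, 24907524 and 30088457 in NC replicates 1 to 3, and 26866148, 17494668 and 27015836 in ORF-Flag replicates 1 to 3. The sources used here do not state whether the libraries of a group came from separate cultures, so p-values measure the spread between these samples, which may be technical.

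The hepatocyte label was checked against 8 markers, all of which were tested. Levels are given in CPM, counts divided by the normalised library size in units of 1e6. The summed level of the markers was between 21425 and 22479.7 CPM in NC and between 22255 and 22319 CPM in ORF-Flag. APOB, an apolipoprotein, was the most abundant of them in each library except ORF-Flag replicate 1, where ALB, the serum protein albumin, was higher. APOB was between 7695 and 8152 CPM in NC and between 7311 and 7742 CPM in ORF-Flag. ALB was between 6714 and 7204 CPM in NC and between 7289 and 7586 CPM in ORF-Flag. Neither passed, with adjusted p-values of 0.244 and 0.205 in edgeR's quasi-likelihood test. TTR, another secreted liver protein, was between 5.63 and 6.66 CPM over the 6 libraries, which is low for a marker of these cells, and whether its row reflects the gene's level was not tested. The 5 macrophage markers and the 5 erythroid markers were all below the filter, with summed levels of at most 0.134 CPM and 0.345 CPM in any library. Among the macrophage markers, PTPRC, MARCO and CD5L had 0 counts in every library.

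Iron travels in plasma bound to transferrin, enters cells through transferrin receptors, and is kept inside ferritin, a shell of heavy and light chains. Ferroportin is the exporter, and ceruloplasmin is a copper enzyme that oxidises iron so that transferrin can bind it. When iron is scarce, the iron regulatory proteins bind hairpins called iron-responsive elements (IREs): binding in a 5′ UTR blocks translation, and binding in a 3′ UTR protects the transcript from decay. Hepatocytes are the main source of plasma transferrin and ceruloplasmin and a main site of iron storage.

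The IRE hairpins are shown because their place in a transcript bears on the kind of control. Hairpins in a 3′ UTR can act on RNA level and those in a 5′ UTR on translation, which read counts do not measure. Protein-coding transcripts of GENCODE release 29 (GRCh38) were searched on the transcript strand for an unpaired C, a stem of 5 pairs with G-T pairs allowed, and a loop of CAGTG followed by any base but G. Of 19492 genes searched, 211 (1.08%) had a match, 26 (0.133%) had one in a 5′ UTR and 102 (0.523%) had one in a 3′ UTR. Among the iron genes, 5 of 10 had a match. Those in the 3′ UTR of TFRC and in the 5′ UTR of FTL and SLC40A1 are printed 5′ to 3′ with the unpaired C and the loop in capitals.
TFRC first: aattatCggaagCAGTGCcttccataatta
TFRC second: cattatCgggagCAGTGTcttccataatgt
TFRC next: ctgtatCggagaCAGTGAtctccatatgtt
TFRC last: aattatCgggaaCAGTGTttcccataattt
FTL: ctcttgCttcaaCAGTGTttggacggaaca
SLC40A1: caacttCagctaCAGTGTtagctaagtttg
The TFRC hairpins lie on the minus strand at chr3:196050978-196051007, chr3:196050574-196050603, chr3:196050509-196050538 and chr3:196050462-196050491. The FTL hairpin lies at chr19:48965335-48965364 (plus strand) and the SLC40A1 hairpin at chr2:189580660-189580689 (minus strand). A match in the 3′ UTR of TF had 3 of 5 pairs in the stem below the unpaired C, against 4 in the FTL hairpin and 5 in the SLC40A1 hairpin and each TFRC hairpin. A match is a description of letters and not evidence of binding. The search found no match in SLC11A2. It allowed no unpaired base within the stem of 5 pairs and no other loop, so elements of another shape can be missed. A gene without a match is therefore not read as lacking an IRE, nor the TFRC matches as all of its IREs. Gene-level counts do not separate any transcripts of SLC11A2 or SLC40A1 that carry an IRE from those that lack it.

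Between the groups, 2 of the 10 iron genes passed an adjusted p of 0.05, both higher in ORF-Flag: CP, encoding ceruloplasmin, by 1.34-fold, and SLC40A1, encoding ferroportin, by 1.12-fold. In the same edgeR quasi-likelihood test with Benjamini-Hochberg adjustment, 551 of 12386 genes (4.45%) passed, 306 (2.47%) higher and 245 (1.98%) lower in ORF-Flag. With 1 library left out, the number of all genes passing was between 199 and 1058. The other 8 iron genes, among them transferrin, both transferrin receptors and both ferritin chains, did not pass. The groups did not overlap for 5 of the 10 genes, against 2778 of 12386 genes (22.4%) in all. These were CP, SLC40A1 and IREB2, higher in each ORF-Flag library, and SLC11A2 and ACO1, lower in each. Under a rule that takes p before adjustment below 0.05 and at least a 1.2-fold difference, CP alone passed among the 10, against 562 of 12386 genes (4.54%). The median log2 fold change of the 10 genes was 0.0034, and that of all genes tested was -0.0012.

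**Figure D1:**
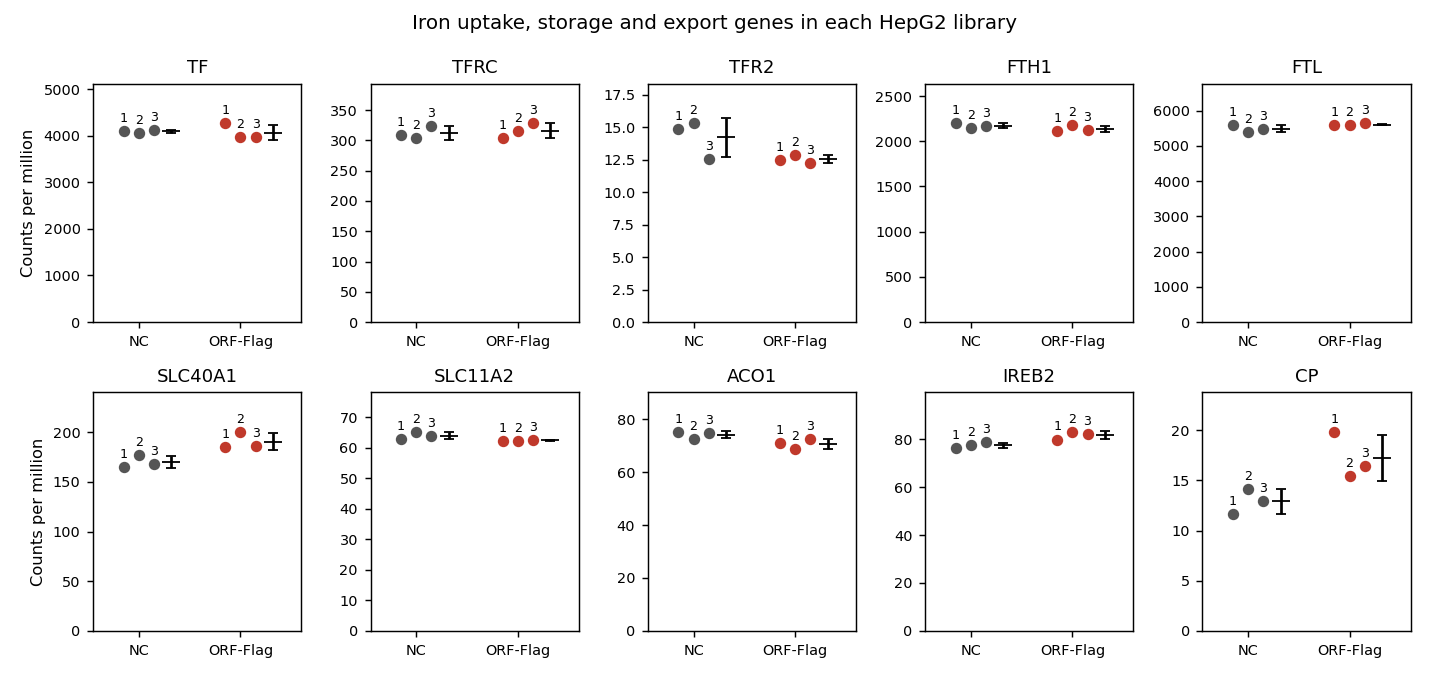
CPM of each iron gene (vertical axes from 0) in the 3 NC and 3 ORF-Flag libraries, numbered by replicate, with the group mean and SD (n = 3) in black. All ORF-Flag points of SLC40A1 lie above 185 and all NC points below 177, and CP shows the same order with ORF-Flag replicate 1 standing highest at 19.8.

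TF, the plasma iron carrier, was at 4102, 4057 and 4121 CPM in NC replicates 1 to 3 and at 4263, 3969 and 3968 CPM in ORF-Flag replicates 1 to 3. ORF-Flag replicate 1 was the highest library and the other 2 of its group were the lowest, so the groups overlapped. The log2 fold change was -0.0094 (95% interval -0.079 to 0.060), with an adjusted p of 0.922 in edgeR's quasi-likelihood test. Exons of SRPRB and of the pseudogene TFP1 cover 1.47% of the main TF transcript. SRPRB had a log2 fold change of 0.033 and an adjusted p of 0.736 in the same edgeR test.

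TFRC, the receptor through which most cells take up transferrin-bound iron, was at 309, 303 and 324 CPM in NC and at 304, 316 and 328 CPM in ORF-Flag. The libraries of the groups interleaved. Its log2 fold change was 0.016 (95% interval -0.058 to 0.090; adjusted p of 0.869 in edgeR's quasi-likelihood test). TFR2, a liver-enriched receptor that takes part in sensing transferrin saturation, was at 14.9, 15.3 and 12.5 CPM in NC and at 12.5, 12.9 and 12.3 CPM in ORF-Flag. NC replicate 3 lay within the ORF-Flag range, and the other NC libraries lay above it. The log2 fold change of TFR2 was -0.18 (95% interval -0.36 to -0.0022) and did not pass, with an adjusted p of 0.262 in edgeR's quasi-likelihood test. Without NC replicate 3, it was -0.27 and passed, with an edgeR adjusted p of 0.0450, in a range of 0.0450 to 0.606 over its 13 alternatives.

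FTH1, the ferritin heavy chain that oxidises iron as it enters the shell, was at 2198, 2146 and 2172 CPM in NC and at 2109, 2174 and 2122 CPM in ORF-Flag. ORF-Flag replicate 2 lay inside the NC range and the other ORF-Flag libraries lay below it. Its log2 fold change was -0.025 (95% interval -0.088 to 0.039; adjusted p of 0.742 in edgeR's quasi-likelihood test). FTL, the light chain that favours mineral formation, was at 5588, 5383 and 5485 CPM in NC and at 5590.5, 5587 and 5637 CPM in ORF-Flag. NC replicate 1 was level with the lowest ORF-Flag libraries, so the groups overlapped. The log2 fold change of FTL was 0.031 (95% interval -0.033 to 0.095; adjusted p of 0.658 in edgeR's quasi-likelihood test).

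Both ferritin values are uncertain, since the annotation names 25 pseudogenes after FTH1 and 16 after FTL. Of their 31-base stretches, 83.0% and 33.3% also occur in transcripts of other genes, read on either strand. How reads shared between genes were counted, and whether strand was used, is not given in the sources used here. BEST1, on the opposite strand, covers 72.6% of the main FTH1 transcript, so this share and the 83.0% can hold the same bases. BEST1 itself had between 7 and 18 counts per library, a log2 fold change of -0.25 and an adjusted p of 0.829 in edgeR's quasi-likelihood test.

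SLC40A1 (ENSG00000138449.11, chr2:189560579-189583758, minus strand) encodes ferroportin, the known exporter of iron from vertebrate cells. It was at 165, 177 and 168 CPM in NC and at 185, 200.2 and 186 CPM in ORF-Flag. Each ORF-Flag library was above each NC library, and replicate 2 was the highest of its group in both groups. The NC mean was 169.9 ± 6.32 CPM (SD, n = 3), and the ORF-Flag mean was higher, at 191 ± 8.39 CPM (SD, n = 3). The log2 fold change was 0.16 (SE 0.038, 95% interval 0.084 to 0.24), with an adjusted p of 0.0142 in edgeR's quasi-likelihood test. Without ORF-Flag replicate 2, it was 0.13 and no longer passed, with an edgeR adjusted p of 0.120, in a range of 0.00114 to 0.120 over its 13 alternatives. No stretch of 31 bases in its longest transcript occurs in transcripts of another gene, and no other gene overlaps its exons.

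CP (ENSG00000047457.14, chr3:149162410-149222055, minus strand) encodes ceruloplasmin, the multicopper ferroxidase that hepatocytes secrete and that works with ferroportin. It was at 11.7, 14.1 and 12.9 CPM in NC, or 236, 353 and 387 counts, and at 19.8, 15.5 and 16.4 CPM in ORF-Flag, or 532, 269 and 444 counts. ORF-Flag replicate 1 stood apart at the top, and the other ORF-Flag libraries were nearer to NC without overlapping it. The NC mean was 12.9 ± 1.23 CPM (SD, n = 3), and the ORF-Flag mean was 17.2 ± 2.29 CPM (SD, n = 3). CP rose by a log2 fold change of 0.42 (SE 0.091, 95% interval 0.23 to 0.61) with an adjusted p of 0.00788 in edgeR's quasi-likelihood test. Without ORF-Flag replicate 1, it was 0.30 and no longer passed, with an edgeR adjusted p of 0.0917, in a range of 4.1e-05 to 0.0917 over its 13 alternatives.

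HPS3, on the opposite strand, covers 26.3% of the main CP transcript, so reads of the genes cannot be told apart there without strand. Of the 31-base stretches of the longest CP transcript, 36.6% also occur in transcripts of 2 other genes, read on either strand, so the CP value is uncertain as well. HPS3 was at 28.2, 32.1 and 32.7 CPM in NC and at 32.4, 28.6 and 31.7 CPM in ORF-Flag. Its groups overlapped, with a log2 fold change of -0.0032 and an adjusted p of 0.987 in edgeR's quasi-likelihood test.

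SLC11A2 encodes DMT1, which moves ferrous iron out of endosomes and across the gut surface. It was at 62.8, 65.1 and 63.8 CPM in NC and at 62.3, 62.3 and 62.6 CPM in ORF-Flag. The ORF-Flag libraries lay below the NC libraries by a narrow margin. The log2 fold change was -0.034 (95% interval -0.12 to 0.055; adjusted p of 0.745 in edgeR's quasi-likelihood test).

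ACO1 encodes IRP1, which is a cytosolic aconitase when it holds an iron-sulphur cluster and binds IREs when it does not. It was at 75.2, 72.7 and 74.7 CPM in NC and at 71.0, 68.6 and 72.5 CPM in ORF-Flag, with the ORF-Flag libraries lower. Its log2 fold change was -0.067 (95% interval -0.15 to 0.020; adjusted p of 0.428 in edgeR's quasi-likelihood test). IREB2 encodes IRP2, which is degraded when iron is plentiful. It was at 76.5, 77.5 and 78.7 CPM in NC and at 79.9, 83.0 and 82.2 CPM in ORF-Flag, with the ORF-Flag libraries higher. Its log2 fold change was 0.074 (95% interval -0.0093 to 0.16; adjusted p of 0.339 in edgeR's quasi-likelihood test). Neither gene passed, and for both the interval includes 0.

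**Figure D2:**
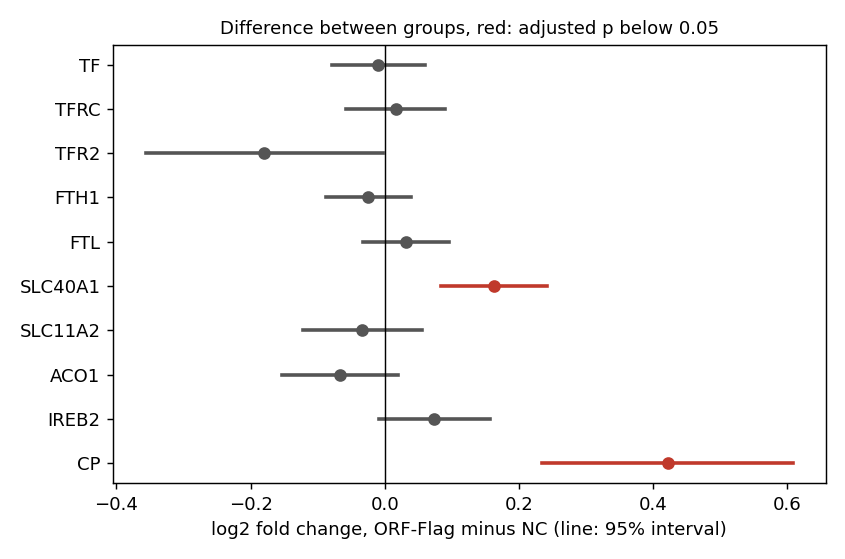
Log2 fold change of ORF-Flag over NC for each iron gene (horizontal axis; points) with its 95% interval (lines), in red where the adjusted p was below 0.05. CP at 0.42 and SLC40A1 at 0.16 are the red points, and the intervals of the other genes except TFR2 include 0.

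**Figure D3:**
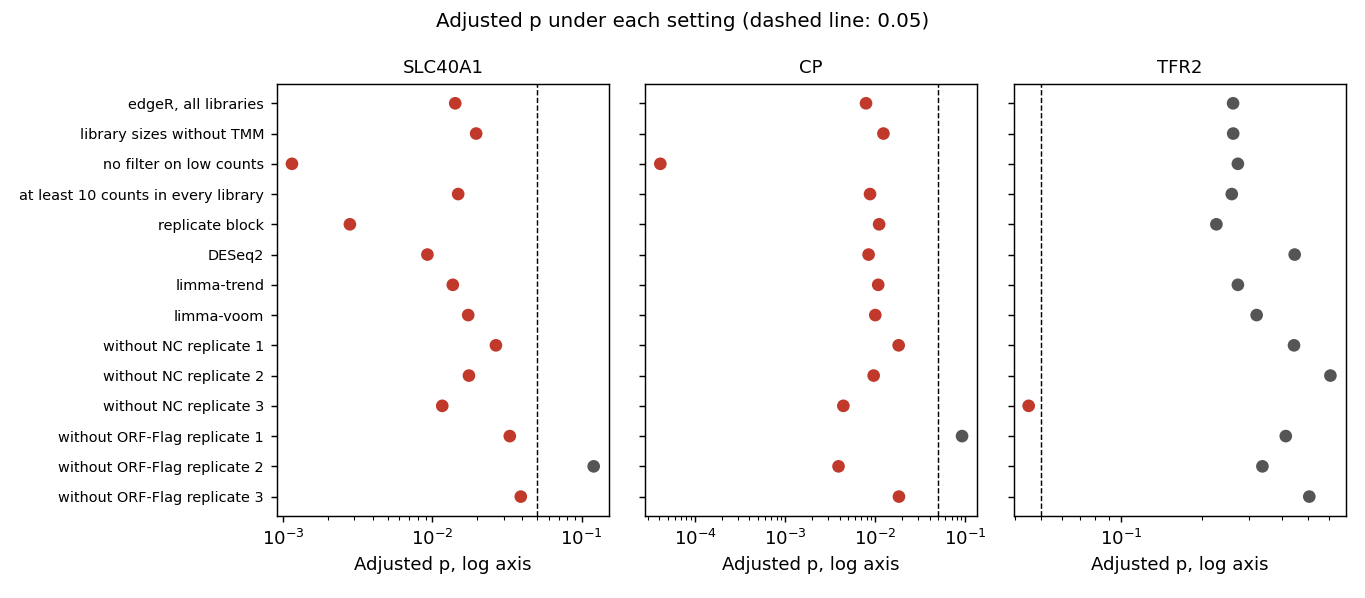
Adjusted p (horizontal log axes) of SLC40A1, CP and TFR2 with all libraries in edgeR and under 13 alternatives (rows), in red below 0.05 (dashed line). SLC40A1 is above the line without ORF-Flag replicate 2, CP without ORF-Flag replicate 1, and TFR2 is below it without NC replicate 3.

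Levels were compared between genes per length, as FPKM, here the CPM of a gene divided by the kilobases in the union of its annotated exons. In NC, FTL was highest at 6248 ± 117 FPKM (SD, n = 3), followed by FTH1 at 1069.9 ± 12.8 FPKM and TF at 156 ± 1.26 FPKM. The ferritin levels are uncertain because of the stretches shared with other genes given above. TFRC at 39.6 ± 1.38 FPKM and SLC40A1 at 39.2 ± 1.46 FPKM did not differ beyond their spread with this length, but were further apart than their spread per longest transcript, at 61.1 ± 2.12 and 49.4 ± 1.84 FPKM, and per coding length, a measure chosen after seeing the data, at 137 ± 4.76 and 99.2 ± 3.69 FPKM. Below them came ACO1 at 9.82 ± 0.177 FPKM, IREB2 at 7.18 ± 0.101 FPKM and SLC11A2 at 6.30 ± 0.115 FPKM. TFR2 at 2.81 ± 0.295 FPKM and CP at 1.77 ± 0.169 FPKM were lowest, so the NC level of ceruloplasmin RNA was the lowest of the 10 per length.

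The level of TF depends on the length used as well, because the annotated exons of TF span 26199 bases and its coding part 2094. Per coding length, TF was at 1955 ± 15.7 FPKM (SD, n = 3) in NC, against 3956 ± 47.1 FPKM for FTH1. The places of FTL, FTH1, TF, TFRC, SLC40A1, TFR2 and CP in the order in NC were the same under the 3 lengths tried, and those of ACO1, IREB2 and SLC11A2 were not. In ORF-Flag, SLC40A1 at 44.0 ± 1.94 FPKM (SD, n = 3) was above TFRC at 40.0 ± 1.54 FPKM per exon union, but below it per longest transcript, at 55.3 ± 2.44 against 61.8 ± 2.37 FPKM.

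**Figure D4:**
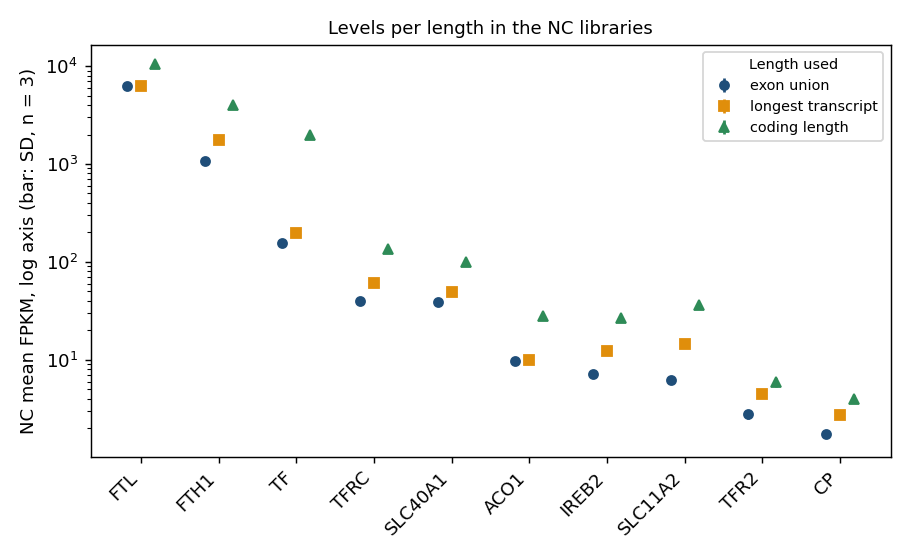
Mean FPKM of each iron gene in NC (vertical log axis; bars are SD, n = 3, mostly hidden by the markers) under 3 gene lengths. FTL, FTH1 and TF lead under each length, and TF moves most, from 156 per exon union to 1955 per coding length.

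Within a library, the ratio of FTH1 to FTL per exon union was 0.170, 0.172 and 0.171 in NC replicates 1 to 3 and 0.163, 0.168 and 0.163 in ORF-Flag replicates 1 to 3. The ORF-Flag ratios were lower in each library, on means of 0.171 ± 0.00116 and 0.165 ± 0.00306 (SD, n = 3), and the difference was not tested. The size of this ratio depends on the length, with NC means of 0.283 per longest transcript and 0.379 per coding length. It also rests on both uncertain ferritin values, with 83.0% of 31-base stretches shared for FTH1 and 33.3% for FTL. The ratio of TFRC to FTH1, which sets uptake beside storage, was 0.0362, 0.0364 and 0.0384 in NC and 0.0371, 0.0374 and 0.0398 in ORF-Flag. These ranges overlapped.

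The tested genes whose pattern over the 6 libraries was nearest to SLC40A1, by Euclidean distance of mean-centred log2 CPM among 12385 genes, were SAMD4A (0.0450), BTBD10 (0.0478) and OSGIN2 (0.0483). Those nearest to CP were TDRD15 (0.165), CLDND2 (0.171) and ABCC11 (0.177), at larger distances. Counts per library were between 10 and 21 for TDRD15, 50 and 100 for CLDND2, and 104 and 209 for ABCC11. With counts this low, the patterns of TDRD15 and CLDND2 are uncertain. None of these 6 genes passed in edgeR's quasi-likelihood test, with adjusted p-values between 0.0670 and 0.512.

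Around these genes, 10 lists of other iron genes held 122 genes, of which 104 were tested. In edgeR's quasi-likelihood test 1 rose and 4 fell, beside 551 of 12386 in all. A log2 fold change below 0 was found for 71 of the 104, against 6253 of 12386 genes, and the medians were -0.034 and -0.0012. The lists were chosen with earlier results of these data known, so these counts are a description and no shift was tested.

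HP encodes haptoglobin, which binds free haemoglobin. It rose from 16.8, 14.1 and 15.4 CPM in NC to 21.6, 20.3 and 21.9 CPM in ORF-Flag. The groups did not overlap, and the log2 fold change was 0.47 (SE 0.074) with an adjusted p of 3.7e-04 in edgeR's quasi-likelihood test. The HP value is uncertain, since 23.5% of its 31-base stretches, read on either strand, also occur in transcripts of 3054 other genes. LRP1, the receptor for haem bound to hemopexin among many ligands, fell from 639.5, 659 and 611 CPM to 572, 569 and 569 CPM. Its log2 fold change was -0.16 (SE 0.033) with an adjusted p of 0.00625 in the same edgeR test. Without NC replicate 2 it no longer passed (log2 fold change of -0.133, edgeR adjusted p of 0.0606, in a range of 1.2e-04 to 0.0606 over its alternatives). These were the genes called among 12 tested for other iron and haem uptake, where SLC39A14, a zinc and iron importer, was the most abundant per length at 39.2 FPKM in NC.

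Among 14 tested genes of the hepcidin axis, ID1, a BMP target, fell from 343, 323 and 319 CPM to 304, 291 and 294 CPM, by a log2 fold change of -0.147 with an adjusted p of 0.0156 in edgeR's quasi-likelihood test. Its call was lost without ORF-Flag replicate 2 (log2 fold change of -0.136, edgeR adjusted p of 0.0885) and without ORF-Flag replicate 3 (-0.139, 0.0997), in a range of 0.00151 to 0.0997 over its alternatives. HAMP, which encodes hepcidin, the hormone that removes ferroportin from the membrane, was at 2.82, 3.00 and 3.78 CPM in NC and at 2.23, 2.13 and 2.22 CPM in ORF-Flag. HAMP is outside the rule for named genes and was added after its values were seen. It did not pass, with a log2 fold change of -0.55 (95% interval -0.92 to -0.19) and an adjusted p of 0.0751 in edgeR's quasi-likelihood test.

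FDXR, which feeds electrons to iron-sulphur cluster assembly, was the gene called among 19 tested mitochondrial iron genes. It fell from 174, 168 and 167 CPM to 154, 157 and 140.3 CPM, by a log2 fold change of -0.176 with an adjusted p of 0.0112 in edgeR's quasi-likelihood test, lost without ORF-Flag replicate 3 (log2 fold change of -0.126, edgeR adjusted p of 0.144, in a range of 2.7e-04 to 0.144). HSPA9, the chaperone of that pathway, was the most abundant of them at 81.7 FPKM in NC. Among 15 genes of oxygen sensing by HIF, VHL, which marks HIF for destruction, fell from 30.4, 30.3 and 28.5 CPM to 26.7, 24.6 and 25.1 CPM, by a log2 fold change of -0.218 with an adjusted p of 0.0408 in edgeR's quasi-likelihood test. DESeq2 did not call VHL (log2 fold change of -0.219, adjusted p of 0.0738). Nor did edgeR without NC replicate 1 or 2 or without any 1 of the ORF-Flag replicates, with log2 fold changes between -0.255 and -0.196. Over its alternatives the adjusted p was between 0.0155 and 0.175.

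No gene was called by edgeR in 6 lists, nor by DESeq2, limma-trend or limma-voom. At an unadjusted p below 0.05, a threshold that 2293 of 12386 genes (18.5%) met in all, the edgeR counts were 2 of 5 tested genes of ferritin loading, 1 of 7 of IRP control and other IRE transcripts, and 1 of 2 of other export. They were 2 of 9 of cytosolic iron-sulphur assembly, 3 of 12 of haem synthesis and breakdown, and 1 of 9 of ferroptosis. With so few genes a list, these counts are read as no result about the lists. The most abundant genes per length were PCBP1, the chaperone that loads ferritin, at 281 FPKM in NC, PFN2 at 48.9 FPKM and the haem exporter FLVCR1 at 5.37 FPKM. The PCBP1 level is uncertain, since 50.5% of its 31-base stretches, read on either strand, also occur in transcripts of 3 other genes. PCBP1-AS1, on the opposite strand, covers 52.2% of the main PCBP1 transcript, so these shares can hold the same bases. In the remaining lists the most abundant were CIAO2A at 28.8 FPKM, UROD at 53.1 FPKM and GPX4, which reduces lipid peroxides, at 89.2 FPKM. SLC2A1, the glucose transporter, led the HIF list at 320.1 FPKM, and ID1 the hepcidin list at 266 FPKM.

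**Figure D5:**
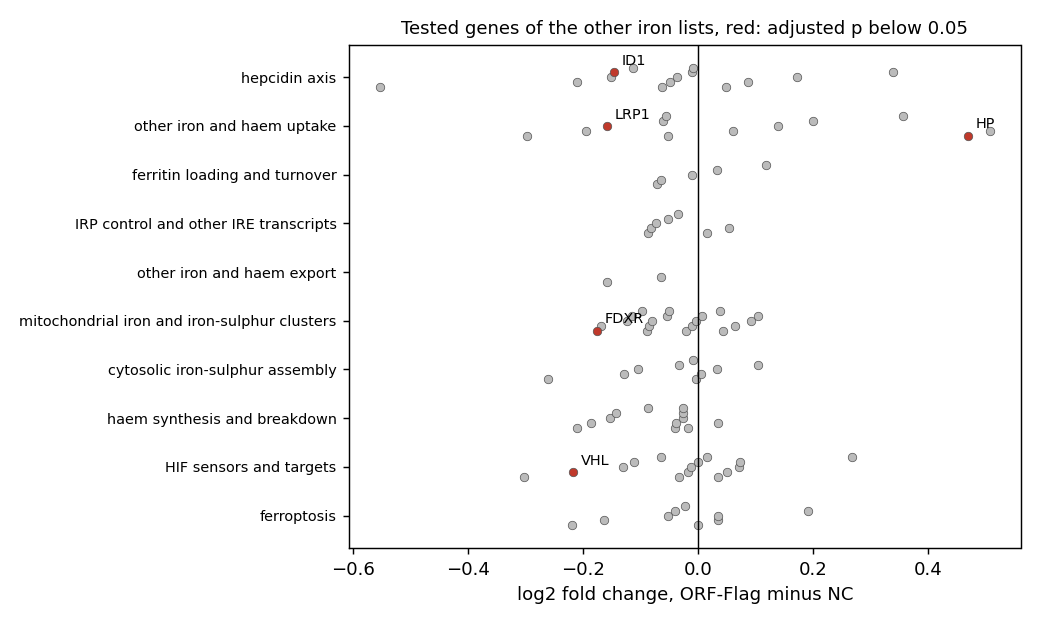
Log2 fold change of ORF-Flag over NC (horizontal axis) for the 104 tested genes of the other iron lists (rows; 1 point a gene, spread vertically for sight), in red where the adjusted p was below 0.05. HP lies to the right at 0.47, and ID1, LRP1, FDXR and VHL lie to the left.

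Markers of other cell types were set beside SLC40A1 and CP. The 4 endothelial markers summed to 4.75, 4.16 and 5.01 CPM in NC and to 6.56, 5.51 and 6.26 CPM in ORF-Flag, so these groups did not overlap either. PECAM1 was the most abundant of them, at 4.45, 3.84 and 4.78 CPM in NC and 6.03, 5.29 and 5.78 CPM in ORF-Flag, and did not pass (adjusted p of 0.0958 in edgeR's quasi-likelihood test). CLEC4G had 0 counts in every library, and CDH5 had at most 1. The 4 stellate and fibroblast markers summed to at most 0.961 CPM in any library. The part of these markers in the result was not tested. Among the hepatocyte markers, FGB, a fibrinogen chain, was the gene called, at 344 to 381 CPM in NC and 392.1 to 407 CPM in ORF-Flag (adjusted p of 0.0232 in edgeR's quasi-likelihood test). Of the 8 hepatocyte markers, 5 had a log2 fold change above 0 and 3 had one below, the latter being APOB (-0.073), HNF4A (-0.053) and APOA1 (-0.041). SERPINA1, HNF4A, APOA1 and AFP did not pass, with edgeR adjusted p-values of 0.130, 0.507, 0.602 and 0.667.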

How the data were processed

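RNA was extracted with TRIzol and libraries were made with the VAHTS universal V10 kit, per the labels. The deposited table holds unnormalized counts for each gene. The submitters' processing notes name cutadapt 1.11, HISAT2 2.1.0, featureCounts 1.6.0, edgeR and GRCh38. The strand setting is not given in the sources used here.

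Counts were tested as deposited with edgeR 4.0.16 in R 4.3.3: filterByExpr's default filter, TMM normalization, glmQLFit and glmQLFTest, with Benjamini-Hochberg adjustment over 12386 genes and calls at an adjusted p below 0.05. Standard errors and 95% intervals come from the quasi-likelihood F statistic. CPM use TMM-scaled library sizes. Lengths, positions and transcripts come from GENCODE release 29. The fits were tested on simulated data. Alternatives used DESeq2 1.42.0, limma 3.58.1, other filters, library sizes without TMM, a replicate block and each library left out. Python 3.11.15, pandas 2.3.3 and matplotlib 3.10.9 made the tables and plots.

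The genes and lists were chosen with earlier results of these data known. From each list, genes with an adjusted p below 0.05 (at most 5) and the most abundant were named, with the 3 nearest patterns for each called iron gene. Some items are not reported here.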

Additional observations from a re-analysis of the deposited data

How the results depend on the processing

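Of 130 refits of the 10 iron genes (13 each), 123 kept their direction and their side of the threshold. The exceptions all left out 1 library, and the cause was not tested. SLC40A1 lost its call without ORF-Flag replicate 2, with log2 fold changes between 0.13 and 0.19 over the left-out libraries. CP lost its call without ORF-Flag replicate 1, between 0.30 and 0.49. TFR2 gained a call without NC replicate 3, between -0.27 and -0.12. TF changed sign, between -0.045 and 0.0080, and TFRC between -0.012 and 0.045. Among the other named genes CIAO2A, between -0.033 and 0.056, and GPX4, between -0.033 and 0.018, also changed sign.

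The number of iron genes called was between 1 and 3 over the left-out libraries, and 1 under the rule of a 1.2-fold difference with p before adjustment below 0.05. For the other iron lists leaving out ORF-Flag replicate 3 gave 2, the lowest, and NC replicate 3 gave 7, the highest, with 3 without NC replicate 2. Over all genes the lowest was 199, without ORF-Flag replicate 3, the highest was 1058, without NC replicate 3, and there were 267 without NC replicate 2, 300 without ORF-Flag replicate 1 and 278 without ORF-Flag replicate 2.

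Deviations of same-numbered libraries from their group means correlated at 0.067, 0.027 and 0.045, and those of other pairs between -0.078 and 0.030. ORF-Flag replicate 2 correlated best with another number. These weak correlations do not decide whether replicate numbers pair the samples. With the replicate block, 731 genes, 2 iron genes and 6 genes of the other lists were called.

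Per longest transcript, NC means were 1767 FPKM for FTH1, 199 for TF, 61.1 for TFRC, 49.4 for SLC40A1, 14.7 for SLC11A2, 12.2 for IREB2, 4.55 for TFR2 and 2.76 for CP, and the ratios of FTH1 to FTL and TFRC to FTH1 were 0.283 and 0.0346. Per coding length, chosen after seeing the data, they were 10448 for FTL, 3956 for FTH1, 1955 for TF, 137 for TFRC, 99.2 for SLC40A1, 36.1 for SLC11A2, 27.8 for ACO1, 26.8 for IREB2, 5.92 for TFR2 and 4.04 for CP, and the ratios were 0.379 and 0.0346. These differences follow from the lengths divided by. A level of 3 counts corresponds to between 0.100 and 0.172 CPM. HAMP, at 37 to 113 counts per library, lies above it, as do the iron genes.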

Other observations

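SKP1, a subunit of the ligase that degrades IRP2, had between 2 and 13 counts per library and was below the filter. This is low for a gene that most cells use, and whether the row reflects its level was not tested. FTMT, STEAP4, SCARA5, SLC22A17 and ERFE had 0 counts in every library, and CYBRD1, a ferric reductase, had between 2 and 4 counts. BOLA2 also had 0 counts. Other annotated genes cover 100% of its main transcript, and 93.6% of its 31-base stretches, read on either strand, occur in transcripts of other genes. Its 0 is therefore not read as absence.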
